A study of Mus musculus with 2 samples.

Results

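The 34 genes described here encode the machinery that copies DNA in S phase, and they were followed through the cells of the newborn mouse ovary. They were taken by symbol from a list chosen with earlier results of these data known. All 34 were found in both count tables, and those tables share 21018 genes. The list covers 9 roles, from origin licensing through the MCM helicase, its activation, the polymerases, the sliding clamp and its loader, Okazaki fragment maturation, nucleotide supply and chromatin assembly to the cyclins and the checkpoint of S phase. Levels were read in 6 classes of cells gated on marker genes that are not among the 34.

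At postnatal day 3, ovaries of C57BL pups were profiled with the 10x Genomics 3′ single-cell assay, in 2 libraries with 1 library per group. Mothers of both groups were given melatonin (MLT) from embryonic day E16.5 until postnatal day 3. In the group labelled DEHP_MLT they also received the phthalate plasticizer DEHP by daily gavage, and in the group labelled MLT an equal volume of DMSO instead. How many pups or ovaries went into a library is not stated in the labels, and neither group lacks melatonin, so the contrast is DEHP against DMSO with melatonin in both. A single library per group gives no replicate spread, so no test or p-value is given. The intervals below are 95% intervals. Those of levels and ratios cover counting error only. Those of shares cover the drawing of cells within 1 library, and cells are not replicates of a group.

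The sample titles and the names of the deposited tables conflict. The sample titled MLT comes with a table named for DEHP_MLT, and the sample titled DEHP_MLT with a table named for MLT. The titles were followed, as the group labels match them, and every difference between the libraries given here would change sign if the titles were wrong.

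There were 5277 barcodes with 80657690 UMIs (unique molecular identifiers, each standing for 1 captured RNA molecule) labelled MLT, and 4819 barcodes with 117355739 UMIs labelled DEHP_MLT. The 2 libraries share 4 barcodes. Of the 10018 barcodes kept, 8402 fell into exactly 1 class. In the order MLT and DEHP_MLT, the gates took 270 and 705 germ cells, 716 and 333 granulosa cells, 234 and 275 surface epithelium cells, 2875 and 2169 stroma cells, 131 and 92 endothelial cells, and 34 and 568 erythroid cells. Markers not used in the gates were highest in their own class for all 6 classes and in both libraries. The granulosa check markers (Foxl2, Amhr2, Wt1, Nr5a2, Kitl) also stood at 10.9 and 9.56 UMIs per 10000 in surface cells, against 18.2 and 17.2 in granulosa cells, and perivascular markers stood at 7.80 and 6.44 in the stroma gate, so that gate is not stroma alone. Median depth was 8163.5 and 57499 UMIs per germ cell, so levels are given as summed UMIs of a gene per 10000 UMIs of its class, and per-cell values after drawing 2000 UMIs from each cell. Haemoglobin RNA was 0.0345% to 0.230% of UMIs in the 5 other classes of MLT and 0.640% to 0.823% in those of DEHP_MLT, and a list of 7 immune markers stood at 0.329 to 1.75 and at 0.807 to 3.6 UMIs per 10000 there.

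Replication starts from origins licensed in G1, where CDC6 and CDT1 load the MCM ring. CDC45 and the GINS complex then turn the ring into a moving helicase, primase and polymerase alpha lay primers, polymerases epsilon and delta extend the strands on the PCNA clamp, and FEN1 and ligase I join the Okazaki fragments. Many of these genes are transcribed at the entry into S phase by E2F factors, whereas oocytes of the newborn ovary have finished their last replication before meiosis and stand arrested in prophase.

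Because the genes are known for shared control at the entry into S phase, their promoters are shown first. RefSeq windows from 250 bases before to 50 after the gene start (GRCm38.p6) were matched for 28 of the 34 genes, and were not matched for Mcm4, Gins1, Gins2, Pole, Rfc2 and Ccne2. An E2F-type site, searched on both strands as TTTCCCGC, TTTCGCGC, TTTGCCGC or TTTGGCGC, was present in 11 of the 28 (39.3%) and in 704 of 27025 genes of the whole table (2.60%). It was present in 16 of 45 other replication genes (35.6%) and in 1 of 22 mitosis genes (4.55%). The 11 are Cdc6, Cdt1, Clspn, Lig1, Mcm3, Mcm5, Mcm6, Mcm7, Pola1, Pold1 and Rfc3. CCAAT on either strand was present in 15 of the 28 (53.6%), in 41.1% of all genes and in 19 of 22 mitosis genes (86.4%). These are matches of letters, not sites of measured binding.

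The windows below are, for each role that has one, the motif-bearing gene with most UMIs among genes with a single window, followed by Rfc4 and Tk1, the genes with a single window that stood highest and lowest in germ cells against the other classes. All run 5′ to 3′ on the strand of the gene, and capitals mark E2F-type matches. The 3 matches of Mcm6 include 2 that overlap, Rfc3 has 2, and Clspn, Pold1 and Cdt1 have 1 each.
Mcm6 promoter, chr1:128359656-128359955, minus strand: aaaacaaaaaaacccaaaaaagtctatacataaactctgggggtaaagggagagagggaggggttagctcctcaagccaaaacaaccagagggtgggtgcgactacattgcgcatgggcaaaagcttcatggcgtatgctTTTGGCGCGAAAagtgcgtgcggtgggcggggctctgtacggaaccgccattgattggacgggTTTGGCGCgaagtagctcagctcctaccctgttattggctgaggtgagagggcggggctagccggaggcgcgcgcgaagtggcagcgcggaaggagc
Rfc3 promoter, chr5:151651159-151651458, minus strand: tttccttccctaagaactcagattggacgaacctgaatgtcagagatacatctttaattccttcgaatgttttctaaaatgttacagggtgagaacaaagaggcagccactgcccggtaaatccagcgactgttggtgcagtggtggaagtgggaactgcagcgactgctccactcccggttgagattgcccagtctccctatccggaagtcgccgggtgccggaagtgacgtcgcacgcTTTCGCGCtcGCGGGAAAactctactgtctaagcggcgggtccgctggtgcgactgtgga
Clspn promoter, chr4:126556730-126557029, plus strand: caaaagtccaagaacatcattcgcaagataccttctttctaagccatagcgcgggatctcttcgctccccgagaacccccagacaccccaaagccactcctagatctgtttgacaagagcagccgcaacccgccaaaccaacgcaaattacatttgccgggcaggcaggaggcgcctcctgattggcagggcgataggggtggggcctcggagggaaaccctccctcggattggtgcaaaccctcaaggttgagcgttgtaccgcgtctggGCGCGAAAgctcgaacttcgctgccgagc
Pold1 promoter, chr7:44548766-44549065, minus strand: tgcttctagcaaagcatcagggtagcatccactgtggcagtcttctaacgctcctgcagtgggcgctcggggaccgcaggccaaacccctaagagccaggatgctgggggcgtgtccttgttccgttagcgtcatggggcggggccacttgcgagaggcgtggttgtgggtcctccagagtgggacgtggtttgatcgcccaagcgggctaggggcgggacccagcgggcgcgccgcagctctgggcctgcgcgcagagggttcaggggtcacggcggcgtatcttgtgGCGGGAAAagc
Cdt1 promoter, chr8:122567765-122568064, plus strand: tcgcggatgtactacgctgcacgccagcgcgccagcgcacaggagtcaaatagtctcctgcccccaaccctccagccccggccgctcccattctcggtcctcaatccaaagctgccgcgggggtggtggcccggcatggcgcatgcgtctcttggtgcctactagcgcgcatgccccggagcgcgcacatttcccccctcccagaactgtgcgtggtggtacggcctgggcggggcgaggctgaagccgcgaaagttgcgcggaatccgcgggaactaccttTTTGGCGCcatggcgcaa
Rfc4 promoter, chr16:23127681-23127980, minus strand: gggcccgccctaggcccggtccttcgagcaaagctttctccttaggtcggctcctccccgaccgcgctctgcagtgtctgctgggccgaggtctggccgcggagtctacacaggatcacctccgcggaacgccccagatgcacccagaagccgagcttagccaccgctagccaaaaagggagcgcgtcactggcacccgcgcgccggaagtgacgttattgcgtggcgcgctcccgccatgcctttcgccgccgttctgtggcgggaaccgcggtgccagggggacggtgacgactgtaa
Tk1 promoter, chr11:117825965-117826264, minus strand: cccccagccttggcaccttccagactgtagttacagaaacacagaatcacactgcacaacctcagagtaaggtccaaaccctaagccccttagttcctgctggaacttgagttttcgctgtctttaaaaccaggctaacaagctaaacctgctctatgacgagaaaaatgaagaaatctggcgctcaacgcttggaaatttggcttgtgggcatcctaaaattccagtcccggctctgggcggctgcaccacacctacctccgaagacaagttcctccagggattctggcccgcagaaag
The windows of Rfc4 and Tk1 hold neither an E2F-type match nor CCAAT. They belong to genes at opposite ends of the germ cell pattern described next.

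Germ cells carried the most replication RNA per 10000 UMIs of the ovarian classes in both libraries. The summed level of the 34 genes in germ cells was 22.3 in MLT (interval 22.0 to 22.6) and 21.7 in DEHP_MLT (21.6 to 21.8). Stroma followed with 18.04 and 16.55, then surface epithelium with 17.0 and 11.6 and endothelium with 13.7 and 11.02. Granulosa cells, the somatic supporting cells that enclose the oocyte, were lowest of these classes with 9.02 (8.87 to 9.16) and 7.36 (7.19 to 7.53). Neighbouring classes in this order had separate intervals in both libraries, except that those of surface and endothelium in DEHP_MLT touched, at 11.4 to 11.9 and 10.6 to 11.4. Erythroid cells, red blood cell precursors, were at 4.97 (4.30 to 5.70) in MLT and 22.3 (21.9 to 22.7) in DEHP_MLT, so their place in the order depended on the library.

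**Figure D1:**
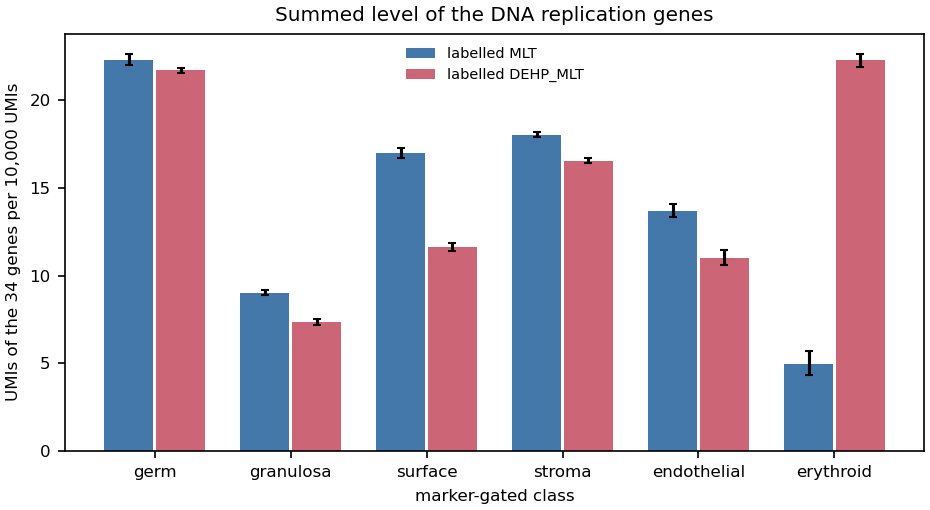
Summed UMIs of the 34 genes per 10000 UMIs of the class (vertical axis) in the 6 gated classes, blue for the library labelled MLT and red for the library labelled DEHP_MLT, with exact Poisson 95% intervals. Germ cells stand at 22.3 and 21.7 and granulosa cells at 9.02 and 7.36, and the erythroid bars differ most, at 4.97 and 22.3.

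The germ cell excess was carried by some genes and not by others, also within a role. Against the mean of the other 5 classes, 15 of the 34 genes (44.1%) were at least 1.5-fold higher in germ cells in both libraries, where 30.3% of all 16616 genes were, and 3 were at least 1.5-fold lower, where 29.2% were. The median log2 difference of the 34 genes was 0.76 in MLT and 0.51 in DEHP_MLT, beside 0.02 and -0.07 over all genes. The other 5 classes include erythroid cells, whose summed level was 4.97 and 22.3, so these values depend in part on that class. In both libraries 20 genes were above each of the 4 ovarian somatic classes, 11 were below the highest of them, and Ccne2, Chaf1b and Slbp changed sides between the libraries.

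Rfc4, Gins2, Pole and Gins1 stood highest in germ cells against the other classes, by the mean of the libraries. Rfc4, a subunit of replication factor C, which loads PCNA, stood at 1.84 UMIs per 10000 in MLT germ cells and 1.82 in DEHP_MLT germ cells, against 0.528 and 0.522 in stroma, and was 2.44 and 2.28 above the other classes on the log2 scale. The loader subunits Rfc2, Rfc3 and Rfc5 were also past 1.5-fold, by 0.74 and 0.74, 0.85 and 1.40, and 1.34 and 1.23. Gins2 was at 1.53 and 1.61 in germ cells against 0.512 and 0.546 in stroma, and Gins1 at 0.305 and 0.301 against 0.139 and 0.134. Their partner in helicase activation, Cdc45, was at 0.118 and 0.107 in germ cells and at 0.118 and 0.0906 in stroma, within 1.5-fold. The clamp gene Pcna itself was at 1.22 and 1.17 in germ cells and at 1.13 and 1.04 in stroma.

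Among the polymerases, the subunits did not move as a block. Pole, the catalytic subunit of the leading-strand polymerase, was at 0.544 and 0.422 in germ cells against 0.162 and 0.146 in stroma, a 3.22-fold and 2.76-fold difference. Pold1, the catalytic subunit of polymerase delta, was at 0.455 and 0.532 against 0.229 and 0.239. Of the primase complex, Prim1 was at log2 differences of 1.11 and 1.04 from the other classes and of 0.12 and 0.37 from stroma alone. Pola1 stood at 0.03 and 0.10 from the other classes and at -0.82 and -0.45 from stroma. Pola2, at 0.149 and 0.161 in germ cells and 0.309 and 0.285 in stroma, stood at -0.44 and -0.43 from the other classes and at -1.01 and -0.78 from stroma. Fen1 and Lig1, the flap nuclease and ligase of Okazaki fragment joining, were above the other classes by 1.21 and 0.76 and by 1.10 and 1.04.

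The MCM helicase was uneven as well. Mcm5 was at 0.958 and 0.999 UMIs per 10000 in germ cells, above stroma at 0.664 and 0.681, and was the MCM gene past 1.5-fold against the other classes, by 1.24 and 1.12. Mcm4 was lower in germ cells than in stroma, at 0.361 and 0.269 against 0.637 and 0.528, and Mcm3 was lower as well, at 0.542 and 0.447 against 0.807 and 0.688. Mcm6 and Mcm7 were also below stroma in both libraries, and Mcm2 was above it by 0.04 and 0.30 on the log2 scale. The 6 genes encode the subunits of 1 ring, so their levels relative to stroma differed within a single complex.

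Nucleotide supply held genes past the fold in both directions. Dut, the dUTPase that keeps uracil out of DNA, was at 1.88 and 1.91 in germ cells and at 0.827 and 0.846 in stroma. Tk1, the thymidine kinase of the salvage pathway, was at 0.122 and 0.146 in germ cells and at 0.472 and 0.560 in stroma, 3.64-fold and 3.66-fold higher in stroma. The 2 ribonucleotide reductase genes went with Tk1. Rrm1 was at 0.298 and 0.295 in germ cells against 0.692 and 0.577 in stroma, and Rrm2 at 0.181 and 0.201 against 0.392 and 0.354. Tyms, the thymidylate synthase, was at 0.938 and 0.947 in germ cells and within 1.5-fold of stroma.

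Set directly against stroma in both libraries, 8 of the 34 genes were at least 1.5-fold higher in germ cells (31.7% of all genes tested) and 6 were at least 1.5-fold lower (30%). The 8 were Rfc4, Pole, Gins2, Dut, Fen1, Gins1, Pold1 and Rfc5, and the 6 were Tk1, Rrm1, Rrm2, Pola2, Mcm4 and Ccne1. Both counts are smaller shares of the set than those over all genes. Chaf1a and Chaf1b, the large subunits of the chromatin assembly factor that deposits histones behind the fork, were 0.97 and 0.97 and 0.79 and 0.77 above the other classes on the log2 scale.

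**Figure D2:**
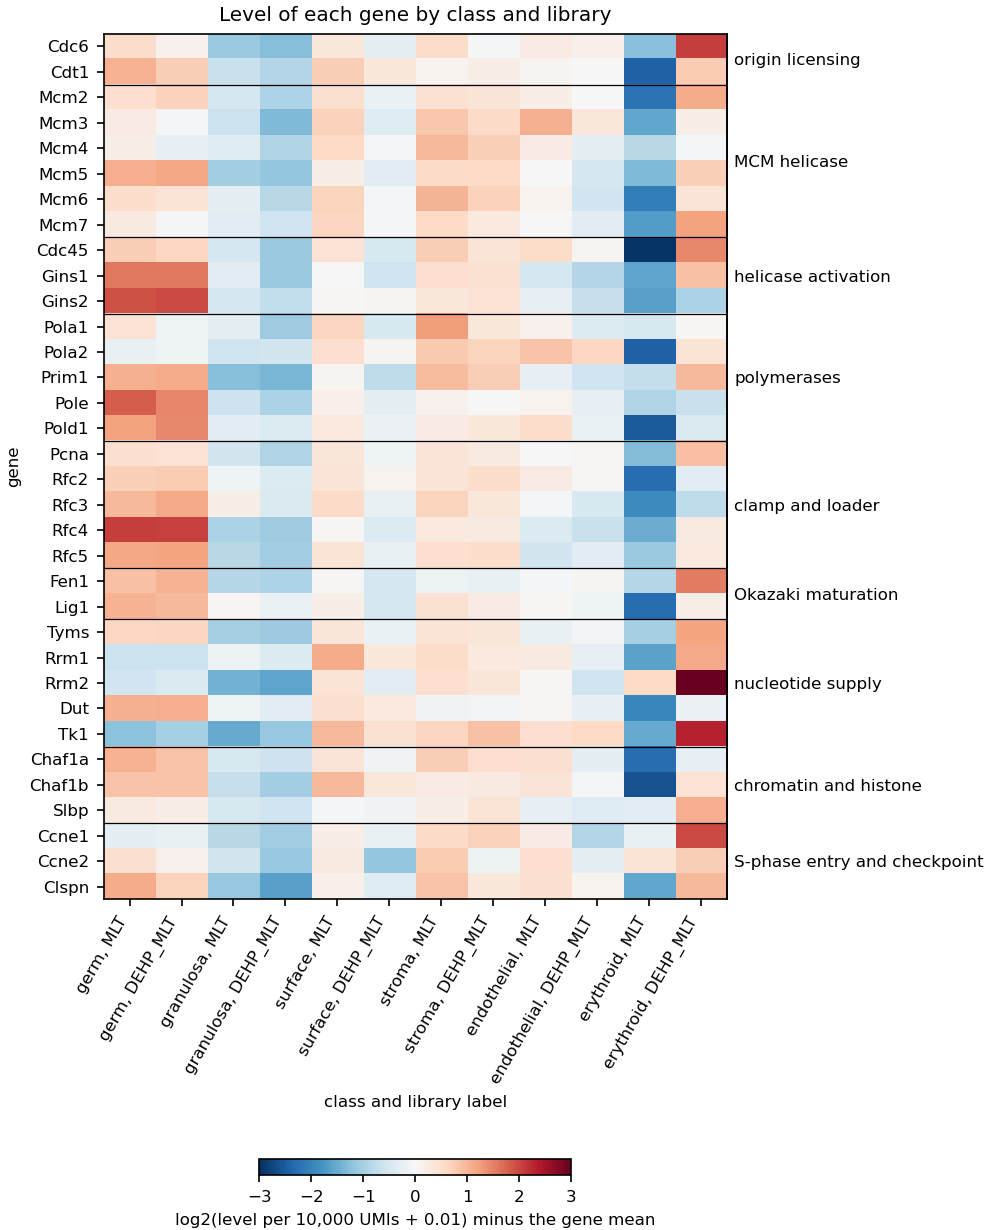
Level of each of the 34 genes (rows, grouped by role) in each class and library (columns), as log2(UMIs per 10000 + 0.01) minus the gene's mean over the 12 columns. Rfc4, Gins1 and Gins2 are deep red in both germ columns, the granulosa columns are blue for most genes, and the erythroid columns differ in colour between the libraries.

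A further list held 54 other replication genes (origin recognition, replication protein A, E2F factors and others). In both libraries 33 of them were at least 1.5-fold higher in germ cells than in the other classes, where 30.3% of all genes were. Lower were 5 of them, where 29.2% of all genes were. Ung, which removes uracil from DNA, was 2.41 and 2.38 higher on the log2 scale, and Orc1 2.71 and 1.97. Pclaf, which encodes a PCNA-binding protein, had log2 differences of -3.64 and -3.58, and E2f2 of -2.43 and -3.28.

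Granulosa cells were the lowest ovarian class for most of the set. In both libraries 27 of the 34 genes were at least 1.5-fold lower there than in the other classes, where 15.5% of all genes were, and 0 were higher, where 17.4% were. The median log2 difference was -0.91 and -1.32, beside 0.15 and 0.03 over all genes. Granulosa was the lowest of the 4 ovarian somatic classes for 30 of the 34 genes in both libraries. By the mean of the libraries Rrm2 was lowest relative to the other classes, at 0.0950 and 0.0843 UMIs per 10000 (log2 difference -1.69 and -2.76). Tk1 followed at 0.0992 and 0.130, then Clspn at 0.136 and 0.0924, Prim1 at 0.0968 and 0.0894 and Cdc6 at 0.0281 and 0.0244. The other classes include erythroid cells, where Rrm2 was at 2.19 and Tk1 at 1.53 in DEHP_MLT, against 0.354 and 0.560 in stroma. The log2 differences and the order of these genes depend in part on that class. Clspn encodes the adaptor that passes the replication stress signal to the checkpoint kinase. The genes not past the fold were Mcm7, Rfc2, Rfc3, Lig1, Rrm1, Dut and Slbp. Of the 26 mitosis genes all 26 were at least 1.5-fold lower in granulosa cells in both libraries.

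Surface, stroma and endothelial cells had few genes past the fold. In surface epithelium 0 genes were past the fold in both libraries in either direction, where 11.9% of all genes were higher and 15.7% lower. The surface median log2 difference was 0.31 in MLT and -0.46 in DEHP_MLT, beside 0.01 and -0.10 over all genes, so its sign differed between the libraries. For these classes too, the mean of the other 5 includes erythroid cells, whose summed level was 4.97 and 22.3. The counts under the rule of both libraries depend in part on that class. In stroma Mcm4, Mcm6 and Pola1 were higher, 3 of 34 against 15.7% of all genes, and 0 were lower against 18.3%, and stroma was the highest ovarian somatic class for 21 of the 34 genes in both libraries. In endothelium 0 were higher against 12.4% of all genes, and Gins1, Gins2, Rfc4 and Rfc5 were lower, 4 of 34 against 24.2%. Erythroid cells stood apart, with a median log2 difference from the other classes of -1.99 in MLT and 0.57 in DEHP_MLT, beside -2.28 and -1.40 over all genes. In erythroid cells Rrm2 was higher, 1 of 34 against 1.5% of all genes, and Gins2, Pole, Pold1 and Rfc3 were lower, 4 of 34 against 71.8%. Haemoglobin RNA took 80.3% and 49.1% of erythroid UMIs, and every other gene is scaled by that total. With haemoglobin and mitochondrial genes left out of the total, 12 genes were higher in erythroid cells and 0 lower. That total raises every other gene in erythroid cells, and the summed level of the 34 genes to 26.1 and 44.7. The share over all genes under it is not given here.

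The spread over cells differed between the classes. Drawn to 2000 UMIs, a germ cell held a mean of 4.41 UMIs of the 34 genes in MLT and 4.37 in DEHP_MLT, and the variance was 1.42 and 1.22 times the mean, near the value of 1 that counting alone gives. A stroma cell held 3.14 and 2.97 with a variance 4.18 and 3.68 times the mean. The fifth of cells with most of this RNA (20%) held 37.6% and 35.9% of it in germ cells and 58.4% and 56.6% in stroma. The ratio was 4.01 and 3.15 in surface, 2.69 and 2.54 in endothelial, 1.84 and 2.58 in granulosa and 11.8 and 9.76 in erythroid cells. It also depends on the mean, which differed between classes. The root of the variance beyond the mean, divided by the mean, was 0.31 and 0.22 in germ cells. It was 1.01 and 0.95 in stroma, 0.95 and 0.98 in surface, 0.82 and 0.90 in endothelial and 0.65 and 1.01 in granulosa cells. By that value granulosa cells of DEHP_MLT were not low in spread.

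The share of cells with at least 4 UMIs of the set at 2000 UMIs was 59.3% (53.1% to 65.2%) and 61.8% (58.1% to 65.4%) in germ cells, 27.5% and 27.2% in stroma, 31.6% (25.7% to 38%) and 17.8% (13.5% to 22.9%) in surface epithelium, and 22.9% and 18.5% in endothelium. It was 15.9% (13.3% to 18.8%) and 7.21% (4.67% to 10.5%) in granulosa cells, the ovarian class with the lowest share. Without drawing to a common depth these shares were 87.8% to 100% in germ cells and 88.3% to 98.7% in the 4 ovarian somatic classes, so at full depth they mostly reflect that nearly every cell has a few such UMIs. In erythroid cells the share at 2000 UMIs was 2.94% (1 of 34 cells) and 27.8% (24.2% to 31.7%).

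**Figure D3:**
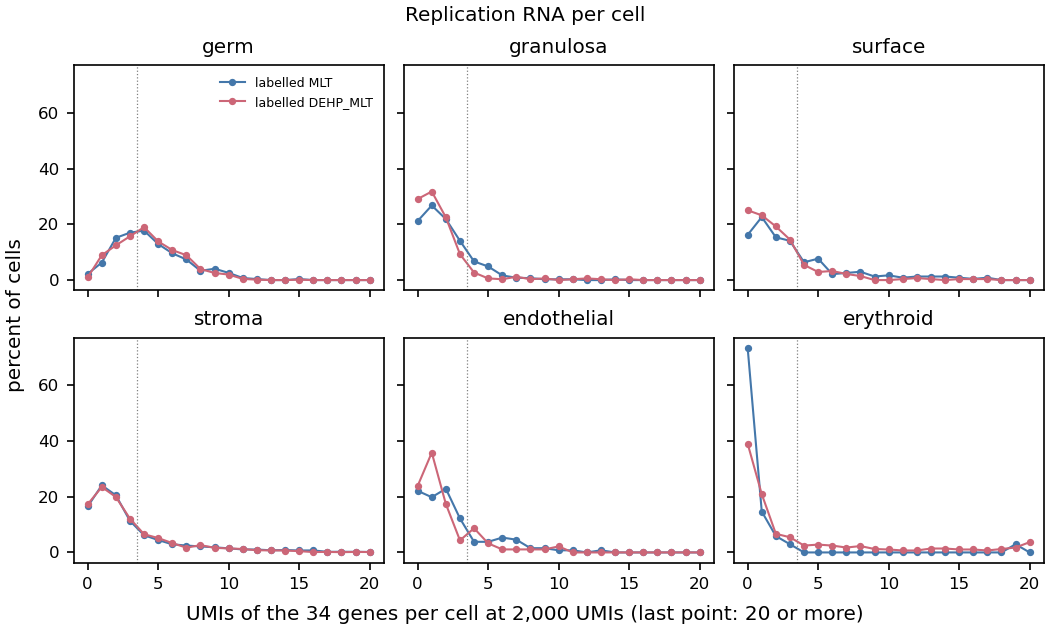
Percent of cells (vertical axis) by the number of UMIs of the 34 genes after drawing each cell to 2000 UMIs (horizontal axis), for each class and library. Germ cells form a single hump around 4 UMIs, while stroma and surface cells peak at 1 or below with a long tail, and 73.5% of erythroid cells labelled MLT hold none.

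The genes varied together from cell to cell in the somatic classes and little in germ cells. For each gene, cells with at least 4 UMIs of the other 33 genes were set against cells with at most 1, so that the split did not use the gene itself. In stroma the median log2 difference over the 34 genes was 2.14 in MLT and 1.98 in DEHP_MLT, and all 34 genes were at least 2-fold higher in both libraries. The largest differences in MLT stroma were 3.77 for Cdc6, 3.68 for Tk1, 3.49 for Clspn and 3.45 for Ccne2, and in DEHP_MLT stroma 4.11 for Ccne2 and 3.69 for Tk1. In surface cells the median was 1.87 and 1.5, in granulosa cells 1.67 and 2.11 and in endothelium 1.77 and 1.66. In germ cells it was 0.09 and 0.20, with 1 gene at least 2-fold higher in MLT (Ccne2) and 0 in DEHP_MLT. The germ comparison in MLT rests on 23 to 32 cells at the low end. The same cut took unlike shares of each class. In MLT 141 to 160 germ cells were at the high end, whereas stroma had 735 to 790 high and 1168 to 1275 low cells. The medians of germ and somatic classes are therefore not on the same scale.

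**Figure D4:**
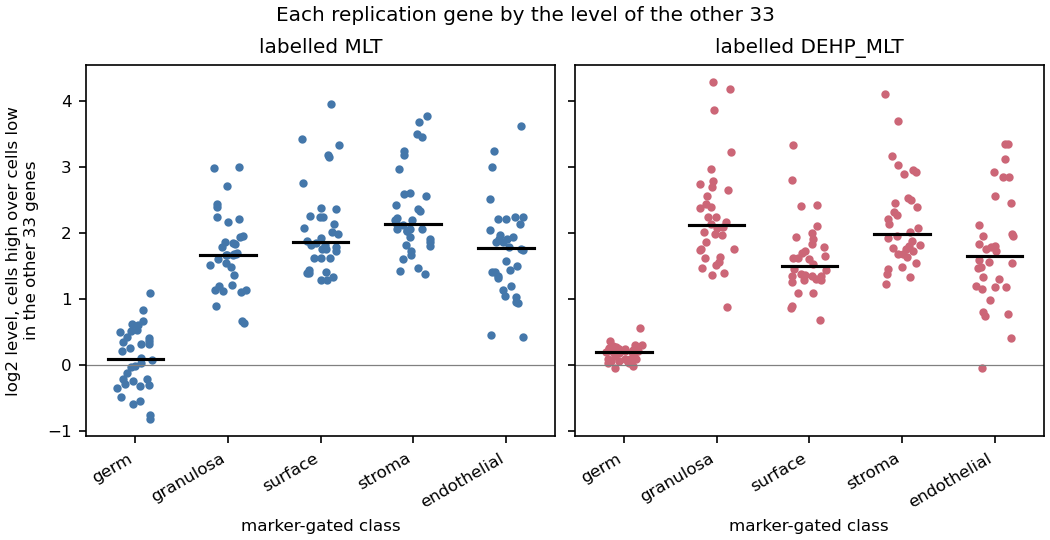
Log2 difference in the level of each of the 34 genes (points) between cells with at least 4 and at most 1 UMIs of the other 33 genes at 2000 UMIs, by class, for each library, with the median as a bar. Germ cell medians are 0.09 and 0.20, and the medians of the 4 ovarian somatic classes lie between 1.5 and 2.14.

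The split by mitosis RNA, which uses no replication gene, separated replication levels in the somatic classes, while very few germ cells were negative. Stroma cells with at least 2 UMIs of 26 mitosis genes at 2000 UMIs had a summed replication level of 30.8 in MLT and 26.5 in DEHP_MLT, against 11.3 and 11.1 in stroma cells with none. Those mitosis-positive cells were 29.6% and 27.0% of stroma. Surface cells stood at 26.6 against 9.34 in MLT and at 14.04 against 9.995 in DEHP_MLT. Endothelial cells stood at 17.8 against 8.01 and at 14.6 against 6.94, and granulosa cells at 12.3 against 7.88 and at 12.9 against 6.15. In germ cells 94.4% and 96.5% carried mitosis-list RNA, and the level was 22.5 against 22.5 in MLT and 21.7 against 19.98 in DEHP_MLT, with 6 and 9 cells in the negative groups. Those groups are too small to set beside the somatic classes. Split by at least 1 UMI of Mki67 or Top2a at 2000 UMIs, germ cells stood at 24.1 (45 cells) against 21.9 (225 cells) in MLT. In DEHP_MLT they stood at 22.4 (111 cells) against 21.6 (594 cells). By the same split, stroma stood at 33.8 against 12.3 in MLT and at 29.0 against 12.3 in DEHP_MLT. Oocytes are known to store RNA of cell cycle genes, and the part of such storage in these values was not tested.

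Between the libraries, surface epithelium had the widest shift of the ovarian classes. Its summed level was 17.0 in MLT and 11.6 in DEHP_MLT, a log2 ratio of -0.54 (-0.58 to -0.51). At least 1.5-fold lower in DEHP_MLT were 16 of the 34 genes, where 9.99% of all genes tested in surface cells were, and 0 were higher, where 2.68% were. The median ratio was -0.58 for the 34 genes and -0.13 for all genes, and 33 of the 34 ratios were negative. For 31 of the 34 genes the counting interval lay wholly below 0.

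Ccne2, a cyclin E that drives entry into S phase, had the lowest surface ratio, at 0.110 UMIs per 10000 in MLT and 0.0343 in DEHP_MLT (log2 -1.44, -2.32 to -1.08). Pola1 was at 0.283 and 0.126 (-1.10) and Mcm3 at 0.745 and 0.350 (-1.07). Helicase genes made up much of the list, since Mcm2, Mcm3, Mcm4, Mcm6 and Mcm7, that is 5 of the 6 MCM genes, were past the fold, with Cdc45 at 0.0929 and 0.0454 and Gins1 at 0.0954 and 0.0598. Prim1, Rfc3, Rfc5, Lig1, Rrm1, Rrm2 and Chaf1b completed the 16. Gins2, at 0.413 and 0.427, and Slbp, whose protein binds the end of histone mRNA, at 1.05 and 0.996, were nearly level. The summed MCM level was 3.88 and 2.33, the polymerase level 1.20 and 0.743, and the clamp and loader level 3.29 and 2.29.

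Mki67 and Top2a, which dividing cells express, were found in a smaller share of surface cells labelled DEHP_MLT. Either was detected at 2000 UMIs in 26.5% (20.96% to 32.6%) of surface cells in MLT and 16.4% (12.2% to 21.3%) in DEHP_MLT. These intervals overlap slightly and cover the drawing of cells within each library, so they do not measure spread between libraries. The share with at least 2 UMIs of the 26 mitosis genes was nearly level, at 33.8% and 30.2%. Replication RNA stood at 27.6 and 15.8 in the cells with Mki67 or Top2a, and at 12.6 and 10.6 in the cells without. Of the 26 mitosis genes 19 were at least 1.5-fold lower in surface cells of DEHP_MLT and 0 higher. Of the 54 other replication genes 13 were lower and 0 higher. Over all genes tested in surface cells, 9.99% were lower and 2.68% higher. MHC class II RNA was at 15.2 UMIs per 10000 in surface cells labelled MLT and at 0.173 in DEHP_MLT, and without the barcodes high in it the surface ratio was -0.53. The surface gate differed between the libraries in other markers as well. In MLT and DEHP_MLT its 2 gate markers summed to 10.1 and 7.81 UMIs per 10000, its 5 check markers to 41.8 and 29.0, and the 7 immune markers to 0.686 and 3.53, with none of these markers at 0, and their part in the surface ratio was not tested. The count of 16 was 8 when libraries were scaled to the median gene ratio and 25 when cells were weighted equally.

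**Figure D5:**
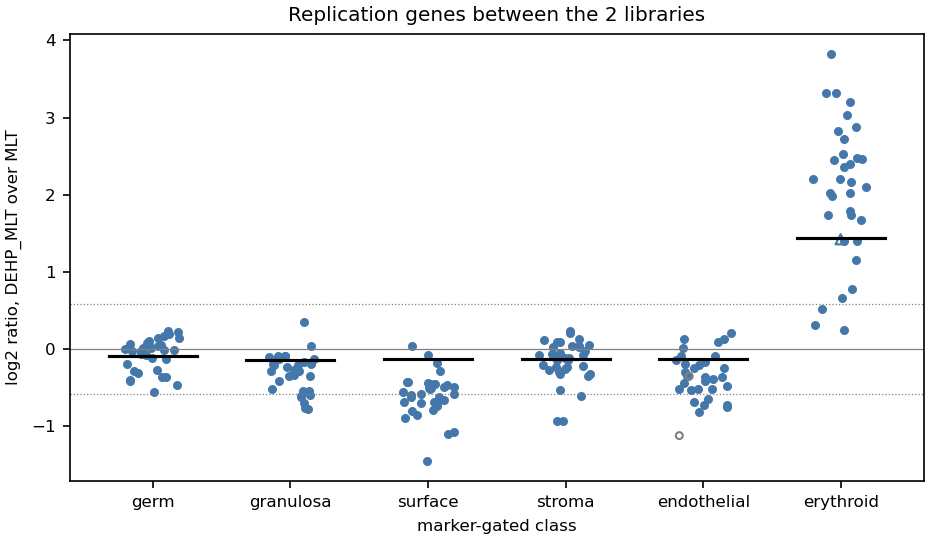
Log2 ratio of DEHP_MLT over MLT for each of the 34 genes (points) in each class, with the median of all genes tested in that class as a black bar and 1.5-fold as dotted lines. The open points are Ccne1 and Gins1 in endothelium, which have too few UMIs to be counted. Surface points lie mostly below their bar at -0.13, germ and stroma points lie around theirs, and erythroid points spread from 0.24 to 3.82, with Cdc45, which has no UMI in MLT, drawn as an open triangle at its lower bound of 1.43.

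The other ovarian classes differed less. In germ cells the ratio of the summed level was -0.04 (-0.06 to -0.02), and 0 of 34 genes were past the fold in either direction, where 1.96% of all genes were higher and 5.47% lower. Pola1 had the lowest germ ratio, at 0.240 and 0.160 (-0.56), and Tk1 the highest, at 0.122 and 0.146 (0.23). In granulosa cells the ratio was -0.29 (-0.33 to -0.25), and Mcm3, Cdc45, Gins1, Pola1, Rfc3 and Ccne2 were lower, 6 of 34 against 8.6% of all genes, with 0 higher against 1.15%. MHC class II RNA was at 8.15 and 0.0782 in granulosa cells, and without the barcodes high in it the granulosa ratio was -0.35. In endothelium, where 32 genes could be tested, the ratio was -0.31 (-0.38 to -0.25), and Mcm3, Mcm6, Pold1, Rrm2, Chaf1a and Ccne2 were lower, 6 of 32 against 12.4%, with 0 higher against 2.9%.

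In stroma the ratio was -0.12 (-0.14 to -0.11), with medians of -0.11 for the 34 genes and -0.13 for all genes. Ccne2, at 0.160 and 0.0796 (-0.93), Pola1, at 0.431 and 0.222 (-0.92), and Cdc6, at 0.111 and 0.0694, were lower, 3 of 34 against 9.02% of all genes, and 0 were higher against 1.54%. In the few stroma barcodes of at least 20000 UMIs, 79 in MLT and 278 in DEHP_MLT, the summed level was 33.9 and 19.3. There 27 of the 34 genes were lower in DEHP_MLT. The share of all genes lower in those barcodes is not given here, so the count has no background beside it. Scaled to the median gene ratio, the stroma and germ ratios were 0.0054 and 0.050. Ccne2 was past the fold in granulosa, surface, stroma and endothelial cells, and Pola1 in granulosa, surface and stroma cells. Tk1 had the highest ratio of the 34 genes in germ, granulosa and stroma cells, at 0.23, 0.36 and 0.24. Tk1 was also at 1.53 UMIs per 10000 in erythroid cells of DEHP_MLT, the library with more haemoglobin RNA in its other classes, and the part of free erythroid RNA in these ratios was not tested.

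Erythroid cells differed most between the libraries, and so did the makeup of the class, with 80.3% and 49.1% haemoglobin RNA. The summed level was 4.97 in 34 cells with 201 UMIs of the set in MLT and 22.3 in 568 cells with 13431 UMIs in DEHP_MLT, a log2 ratio of 2.17 (1.97 to 2.37). At least 1.5-fold higher in DEHP_MLT were 31 of 34 genes, where 77.1% of all genes tested were, and 0 were lower, where 2.12% were. The median ratio was 2.19 for the 34 genes, or 2.14 with Cdc45 at its bound, and 1.44 for all genes. Without haemoglobin and mitochondrial genes in the total, the ratio of the summed level was 0.77. The 7 immune markers summed to 0.593 UMIs per 10000 in MLT erythroid cells, with Ptprc and C1qa at 0, and to 17.1 in DEHP_MLT with none at 0, and their part in the ratio was not tested.

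Tk1 was at 0.0988 (4 UMIs) and 1.53 (923 UMIs) per 10000 in erythroid cells, a log2 ratio of 3.82 (2.59 to 5.83). Rrm2 was at 0.420 and 2.19, Mcm7 at 0.173 and 1.34, Pcna at 0.346 and 1.63 and Tyms at 0.296 and 1.37. Cdc45 had 0 UMIs in MLT and 120 in DEHP_MLT, at least 2.69-fold higher against a floor of 3 counts over the class. In all, 11 of the 34 genes had 3 or fewer UMIs in MLT erythroid cells. Pole, Ccne2 and Pola1 were not past the fold, at ratios of 0.24, 0.31 and 0.53 with intervals that include 0.

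Among erythroid cells labelled DEHP_MLT, replication RNA went down with the share of haemoglobin RNA. Scaled to UMIs without haemoglobin and mitochondrial genes, the summed level was 81.7 (79.7 to 83.8) in 64 cells with under 25% haemoglobin RNA and 51.1 (49.8 to 52.3) in 188 cells with 25% to 50%. It was 8.99 (8.39 to 9.62) in 287 cells with 50% to 75% and 8.76 (6.76 to 11.2) in 29 cells with over 75%. In MLT 28 of the 34 cells lay in the highest bin, at 12.8 (9.92 to 16.2), and 4 in the bin of 50% to 75%, at 76.9. Those 4 cells held 127 of the 201 UMIs of the set in MLT. The lower bins of MLT held 1 cell each, at 15.8 (5.79 to 34.3) under 25% and at 0 (up to 10.9) from 25% to 50%, so no such order was seen in MLT. Erythroid cells with mitosis RNA stood at 10.98 against 2.03 in MLT and at 30.3 against 2.39 in DEHP_MLT, and they were 32.4% and 69.2% of the class. The MLT values come from 11 cells with and 17 cells without this RNA.

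Slbp and the S-phase cyclins closed the list. Slbp was at 0.865 and 2.30 in erythroid cells, and between 0.705 and 1.44 in the 5 other classes of both libraries. Ccne1 was at 0.0741 and 0.377 in erythroid cells and at 0.0707 and 0.0744 in germ cells, and Ccne2 at 0.124 and 0.156 and at 0.129 and 0.0986. In cells split by the other 33 genes, Ccne1 was 2.41 to 3.34 higher and Ccne2 1.65 to 4.11 higher in stroma and surface cells, whereas in germ cells the differences were -0.55 and 0.07 for Ccne1 and 1.09 and 0.28 for Ccne2. The germ values in MLT rest on 4 UMIs of Ccne1 and 2 of Ccne2 in the low cells.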

How the data were processed

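The authors deposited 1 table of raw UMI counts per library, genes by barcodes, which are whole numbers. Per the submitters' processing notes, Cell Ranger (version not stated), Seurat 4.2.0 and the mm9 build were used. Groups follow the sample titles. The 34 genes, the other lists and the markers were chosen with earlier results of these data known.

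A barcode was kept if it had 500 genes or more and a mitochondrial share of 20% or less, which left 5199 and 4819. A marker score per 10000 UMIs was divided by its 99th percentile over all kept barcodes, and a class needed a relative score of 0.15 and 2 markers. Barcodes meeting several gates were left out as mixed (347 and 349), as were ungated ones (592 and 328), and no doublet caller was run, so doublets with few markers may remain.

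UMIs were summed per class and library and scaled to 10000. Apart from the Cdc45 bound, ratios and folds of single genes are log2 differences after adding 0.01 per 10000, which understates differences of low genes. Ratios of summed levels have nothing added. Intervals of gene ratios were taken from the counts without that addition, so they are not centred on the printed ratios. A gene was counted when at least 1.5-fold apart and with at least 50 UMIs, over the class for libraries and over all classes otherwise. Intervals are exact Poisson for levels, conditional binomial for ratios and Clopper-Pearson for shares. PCR duplicates are removed by UMIs. Cells were thinned at random without replacement. Every one of the 34 genes could be named, and of the other lists up to 4 extremes. The scripts were tested on simulated counts. Tools were Python 3.11.15 with pandas 2.3.3, numpy 2.4.6, matplotlib 3.10.9 and scipy 1.17.1.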

Additional observations from a re-analysis of the deposited data

Results flagged for a closer look

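The summed level of the 34 genes in erythroid cells was higher in DEHP_MLT, with a log2 ratio of 2.17, whereas the ratios in the 5 other classes were negative, between -0.54 and -0.04. With 1 library per group this difference between classes was not tested. The barcodes that met no gate, which enter no comparison, held replication RNA as well. Their summed level was 24.6 UMIs per 10000 in DEHP_MLT (328 barcodes) and 13.2 in MLT (592 barcodes). Among them, Rrm2 was at 1.02 and 0.206, Tk1 at 1.20 and 0.208, Slbp at 1.95 and 0.878 and Pola1 at 0.181 and 0.232. The 7 immune markers stood at 94.9 and 52.6 there, and the erythroid check markers at 4.46 and 0.00817. Granulosa check markers stood at 5.28 and 8.44, perivascular markers at 6.82 and 6.94 and surface check markers at 3.96 and 5.06. The ungated barcodes are therefore not of a single cell type.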

How the results depend on the processing

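No paired analysis was possible because each group has 1 library, and leaving out a library would leave a group empty. Over 14 alternatives, 0 genes were at least 1.5-fold higher in DEHP_MLT outside erythroid cells in all of them. Counts of genes under the alternatives are given without the share over all genes, so they have no background beside them. Log2 ratios of the summed level changed sign when libraries were scaled to the median gene ratio, at 0.050 in germ cells and 0.0054 in stroma. That scaling, which shifts all genes by -0.13 to -0.09 outside erythroid cells and by 1.44 in them, gave -0.16 in granulosa, -0.41 in surface, -0.19 in endothelial and 0.72 in erythroid cells, with 2 genes lower in granulosa, 8 in surface and 5 in erythroid cells. With cells weighted equally the ratios were -0.0083 in germ, -0.34 in granulosa, -0.68 in surface, -0.081 in stroma and 1.94 in erythroid cells, 2 germ and 25 surface genes were lower, and 1 gene was higher in endothelium than in the other classes. A gate of 0.10 gave -0.49 in surface cells, a gate of 0.25 gave 1.87 in erythroid cells and 1 germ gene lower, and a common floor of 6923 UMIs gave -0.14 in stroma.

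Without haemoglobin and mitochondrial genes in the total, the erythroid ratio was 0.77 with 4 genes lower, and against the other classes 12 genes were higher and 0 lower in erythroid cells, 0 higher and 2 lower in stroma, 5 lower in surface and 9 lower in endothelial cells. At 2-fold, the genes lower in DEHP_MLT numbered 3 in surface and 0 in granulosa, stroma and endothelial cells. Against the other classes at 2-fold, 1 was lower in germ, 14 in granulosa, 0 in endothelial and 1 in erythroid cells, and 0 were higher in stroma or erythroid cells. A pseudocount of 0.1 left 9 surface, 0 granulosa, 1 stroma and 1 endothelial gene lower.

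The following were chosen after seeing the data. Without MHC class II-high barcodes the ratios were -0.068 in germ, -0.35 in granulosa and -0.18 in stroma. Barcodes with a score of 0.08 or more for another class left out, they were -0.49 in surface and -0.14 in stroma, with 3 genes lower in granulosa. In barcodes of at least 20000 UMIs the ratios were -0.37 in granulosa and -0.81 in stroma, where 27 genes were lower, and erythroid cells gave no value because MLT held none. The cause of these shifts was not tested. Depth limits the erythroid values most, since MLT held 201 UMIs of the set there.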
